A study of Anthurium andraeanum with 18 samples.

Results

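The genes described here are those of Anthurium andraeanum leaves whose database description names a DNA transposon transposase or a gene derived from one. They were chosen by text alone: the Swiss-Prot description, or the nr description where Swiss-Prot gave none, had to name a transposase, RICESLEEPER, DAYSLEEPER, HARBI1, hAT, MuDR, an Ac-like transposon or a zinc finger BED domain, and entries naming retrotransposons, copia, gypsy or FAR1 were left out. This gave 141 members of 158487 assembled genes, 39786 of which carry a description. No expression value entered this text rule, but the members were chosen with earlier results of these data known. Leaves of 2 plant materials, named Ken and MH in the sample titles, were profiled by RNA sequencing at full flowering. What Ken and MH are, and their genotype, is not given in the sources used here. Control plants were held at 25 °C, and heated plants were moved from 25 °C to 38/33 °C (day/night) for 3 days and then to 40/35 °C for 3 days, so the plants sampled at 40/35 °C had also passed through 38/33 °C. Each material thus has a control, a 38 and a 40 group (Ken 38 is the Ken group at 38/33 °C, and so on), and each of the 6 groups held 3 libraries. The titles call the libraries biological replicates without saying that they came from separate plants, and p-values measure only the spread between these libraries. The time at which the controls were taken is not given in the sources used here, so plant age and hour of sampling cannot be told apart from the regime.

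DNA transposons move by a cut and paste mechanism that is carried out by the transposase they encode. In hAT elements, the family of maize Activator (Ac) and snapdragon Tam3, the transposase binds DNA through a zinc finger of the BED type and pairs through a dimerization domain near its end. In PIF/Harbinger elements, a nuclease and a separate DNA-binding protein of the myb/SANT type act together. Plants have also kept transposase genes as ordinary genes: DAYSLEEPER of Arabidopsis thaliana and the RICESLEEPER genes of rice come from hAT transposases, and mutants of DAYSLEEPER and of RICESLEEPER 1 and 2 grow poorly. HARBI1 is a protein of vertebrates that derives from a Harbinger nuclease, and plant genes given that name resemble the nuclease. A description by likeness does not say whether a gene sits in a mobile element or serves the plant. Silencing by DNA methylation and small RNAs keeps most transposons of plants quiet.

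By description, 107 of the 141 members belonged to hAT and 32 to PIF/Harbinger. The remaining 2, described as a partial transposase of the orchid Gongora ilense, had no stated family. No member was described as Mutator, CACTA or Tc1/mariner. Among hAT members, 44 were named RICESLEEPER 2, 19 RICESLEEPER 1, 4 RICESLEEPER 3 and 2 RICESLEEPER 4. A further 24 hAT members were named after the Activator or Tam3 transposase, 13 after DAYSLEEPER and 1 after the hAT dimerization domain alone. Among PIF/Harbinger members, 30 were named HARBI1 and 2 were described as a myb/SANT Harbinger nuclease protein. The deposited Pfam assignments, which the choice did not use, followed these families. The hAT dimerization domain was assigned to 35 members, DUF4413 to 22 and the BED zinc finger to 5, all of them hAT. The nuclease domain DDE_Tnp_4 was assigned to 22 members, of which 21 were PIF/Harbinger. No domain was assigned to 51 members. The closest nr entries came from 50 plant species.

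Many members were short pieces. Their lengths ran from 201 to 4126 bases with a median of 500, against a median of 814 for described genes and 322 for all genes, and 71 members had at least 500 bases. The identifiers put the 141 members into 92 assembler clusters, and 79 members shared a cluster with another member. The estimated counts of members were not whole in 10.2% of values against 5.8% for all genes, and in 7 members over 9 of the 18 values were not whole. Near-identical copies or alleles in one cluster may share reads, so their separate levels are uncertain. No coordinates or sequences were used here, and the sources used here do not say whether reads were counted by strand.

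Libraries held between 15845118 and 22867236 estimated counts. Leaf identity was clear in the controls, where 29 genes for light-harvesting proteins summed to 61730 ± 7601 TPM (a level per length, scaled to a fixed total per library) in Ken and 97620 ± 9638 in MH. In the 40 groups of Ken and MH that sum was 167.5 ± 40.1 and 175.6 ± 96.2 TPM. Genes without any description took a mean of 9.48%, 14.05% and 11.61% of the counts in Ken without heat, at the first and at the second regime, and 8.79%, 17.42% and 21.57% in MH. The effective library sizes that edgeR derived (TMM factors) lay between 0.684, for a Ken control library, and 1.54, for one of MH 40, relative to library totals. Scaling by library totals alone moved the median over all tested genes, as a log2 change, from 0.42 to 0.97 in Ken 38, from 0.30 to 0.76 in Ken 40, from 0.73 to 1.55 in MH 38 and from 1.03 to 2.02 in MH 40, each against its control. Changes below are therefore relative to the TMM scale, and the calls with library totals stand beside them where the balance of rises and falls moved by more than 10 percentage points. MH 38 replicate 3 stood apart from its group: its light-harvesting sum was 20580 TPM, where the lowest library of MH 38 had 813.5. Lists for animal, fungal, bacterial and viral transcripts held 7, 2, 3 and 3 genes. Their summed levels by group ranged from 76.5 to 209.2 TPM for the animal list, 0 to 7.89 for the fungal, 27 to 106.6 for the bacterial and 0 to 9.31 for the viral list. The animal list was lowest in MH 40, both fungal entries had no count in either 38 group or in unheated MH, and the viral entries had counts in no groups but Ken 38 and MH control. Their part in the results was not tested.

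The members made up a small share of the leaf transcriptome, and their summed TPM was higher in MH than in Ken at each regime. The Ken control libraries summed to 329.4 ± 15.04 TPM (mean ± SD, n = 3), those of Ken 38 to 622.7 ± 65.3 and those of Ken 40 to 392.3 ± 32.3. The MH sums were 528.3 ± 25.7 TPM without heat, then 976.5 ± 38.02 with the first regime and 1011 ± 95.98 with the second. No library of Ken 38 lay below 563.1 TPM and no library of Ken control above 343.9, while Ken 40 lay between 369.5 and 429.3. The 32 PIF/Harbinger members together had 37.3 ± 5.93 TPM in unheated Ken, 153.2 ± 16.2 after the first regime and 145.3 ± 23.3 after the second. For MH the same sums were 111.5 ± 11.3, 276.3 ± 64.9 and 344.3 ± 3.44 TPM. The hAT members summed to 292.1 ± 15.8, 469.4 ± 49.5 and 247.0 ± 14.03 TPM in Ken and to 416.0 ± 19.8, 699.3 ± 103.1 and 660.5 ± 93.7 TPM in MH. The hAT libraries of Ken 40 lay below those of Ken control in TPM, and as a share of the estimated counts they held a mean of 0.0365% against 0.0335%. The PIF/Harbinger libraries of every heated group lay above those of their control. The size of these differences depends on the scale. As TMM-scaled CPM all members summed to 519.3, 587 and 529.3 in the Ken groups and 588.2, 622.8 and 635.2 in the MH groups. That scale leaves out length and also divides by the TMM factors. These were at most 0.734 in the control libraries and at least 0.959 in the heated ones. Dividing by them lowers the heated sums against the controls, whether or not length is counted. As TMM-scaled CPM the higher mean of MH 38 over Ken 38 rested on MH 38 replicate 3, at 729.6. Without that library the MH 38 mean was 569.3, below that of Ken 38. In bulk leaves, fewer cells of a type and less RNA per cell cannot be told apart.

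**Figure D1:**
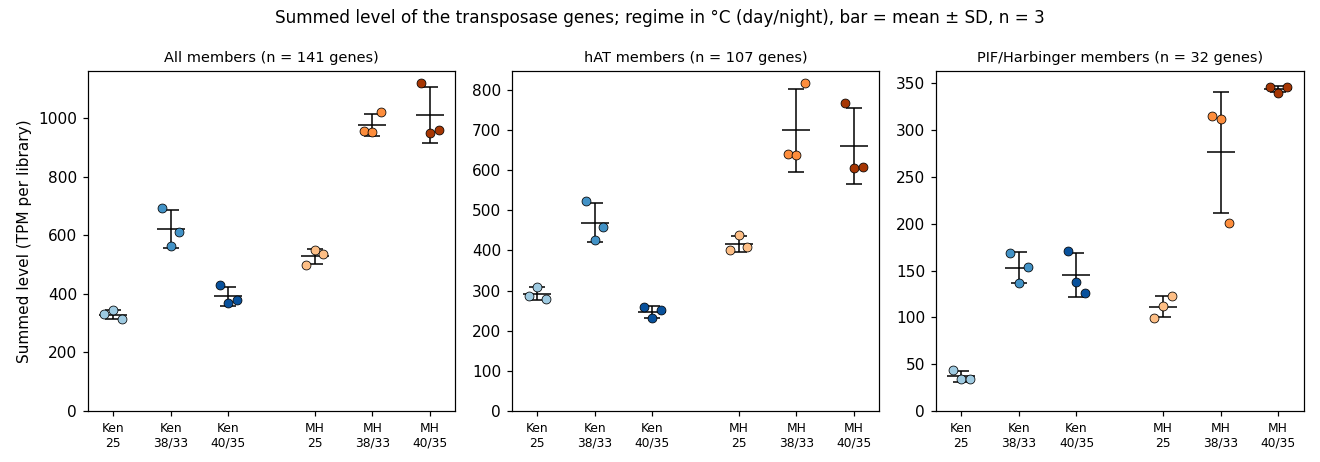
Summed level of the 141 transposase genes, of the 107 hAT and of the 32 PIF/Harbinger members in each library. The y axis is TPM per library, the x axis gives material and regime, points are libraries, and bars are mean ± SD with n = 3; the PIF/Harbinger libraries of Ken control sit between 33.83 and 44.12 TPM and those of MH 40 between 340.3 and 346.6.

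Levels of single members were low. The mean over the 18 libraries reached 10 TPM in 19 members and 1 TPM in 85. The highest, TRINITY_DN62310_c0_g1 (RICESLEEPER 1, 998 bases), had 20.5, 30.74 and 22.83 TPM in the Ken control libraries and 48.77, 53.46 and 53.05 in the MH control libraries. All 3 MH libraries were above all 3 Ken libraries. Its estimated counts were not whole in 72.22% of libraries, so it may share reads with other sequences. Next by mean level came TRINITY_DN60779_c0_g1 and TRINITY_DN64076_c3_g2, also RICESLEEPER 1, and the HARBI1 genes TRINITY_DN36889_c2_g2, TRINITY_DN41596_c0_g2 and TRINITY_DN41764_c0_g2. For testing, 94 members had enough counts, 70 hAT, 23 PIF/Harbinger and 1 of no stated family. The other 47 had a median of 29 counts over all libraries and at most 107, and a mean of at most 2.71 TPM. Only 1 of those 47 had 500 bases or more. Counts of members given below are of the 94.

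The first comparison, Ken 38 with its control, addressed the response of these genes in Ken to 3 days at 38/33 °C. Of the 94 tested members 23 rose and 4 fell, a share of 24.5% and 4.26%. Of all 70022 tested genes, 20.3% rose and 15.9% fell. The median log2 change was 0.40 for the members, 0.42 for all genes and -0.07 for described genes. PIF/Harbinger members made up 9 of the rises and none of the falls, and hAT members 14 and 4. Scaled by library totals alone, 39 members rose and 1 fell. Rises then went from 85.2% to 97.5% of member calls, and from 56.1% to 76.6% of calls over all genes. Without Ken 38 replicate 1 the member falls numbered 2.

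Among the HARBI1 genes, TRINITY_DN36889_c2_g2 (1925 bases, with the nuclease domain) had 6.3, 6.56 and 4.36 TPM in Ken control and 34.93, 29.45 and 29.85 in Ken 38. No heated library came near the controls (log2 fold change 1.98 ± 0.24, adjusted p = 1.01e-06, edgeR quasi-likelihood test with Benjamini-Hochberg adjustment, as for every adjusted p here). A shorter HARBI1 gene, TRINITY_DN41764_c0_g2, rose to 27.9 ± 6.91 TPM from 4.7 ± 1.74 (log2 fold change 2.21 ± 0.34, adjusted p = 2.49e-05). The Activator-type TRINITY_DN36004_c0_g1 (746 bases) had 0.11, 0 and 1.97 TPM in Ken control and 16.01, 7.56 and 7.82 in Ken 38. It was close to 0 in 2 of the 3 controls, and no heated library overlapped them (log2 fold change 5.78 ± 0.81, adjusted p = 1.04e-05). This change is fitted to estimated counts, as for every gene here, and was larger than its TPM values show. RICESLEEPER 1 gene TRINITY_DN60779_c0_g1 had 2.52, 3.0 and 3.46 TPM in the controls and 55.71, 33.38 and 26.72 in Ken 38, again without overlap (log2 fold change 2.39 ± 0.36, adjusted p = 1.67e-05). The RICESLEEPER 3 gene TRINITY_DN64058_c0_g1 rose to 7.21 ± 3.704 TPM from 0.113 ± 0.196 (log2 fold change 5.02 ± 0.79, adjusted p = 2.68e-05). RICESLEEPER 2 gene TRINITY_DN58436_c0_g2 rose to 2.203 ± 0.629 TPM from 0.060 ± 0.0346 (log2 fold change 4.06 ± 0.57, adjusted p = 6.69e-06). The largest fall that the naming rule picked was that of TRINITY_DN42692_c1_g5, a RICESLEEPER 2 gene of 3162 bases with the hAT dimerization domain. It had 7.41, 6.21 and 6.39 TPM in the controls and 1.83, 2.49 and 1.82 in Ken 38 (log2 fold change -2.17 ± 0.33, adjusted p = 2.73e-05). The other named falls were small or weak: TRINITY_DN51308_c1_g2 (RICESLEEPER 1) went from 2.86 ± 0.761 to 1.23 ± 0.918 TPM, a call (adjusted p = 0.0138) that ended without Ken 38 replicate 1 or Ken control replicate 2, and TRINITY_DN53125_c1_g1 (RICESLEEPER 2) from 15.5 ± 1.46 to 13.8 ± 0.468. Scaled by library totals neither was called, and the log2 change of TRINITY_DN53125_c1_g1 was -0.07 in place of -0.65 ± 0.18.

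**Figure D2:**
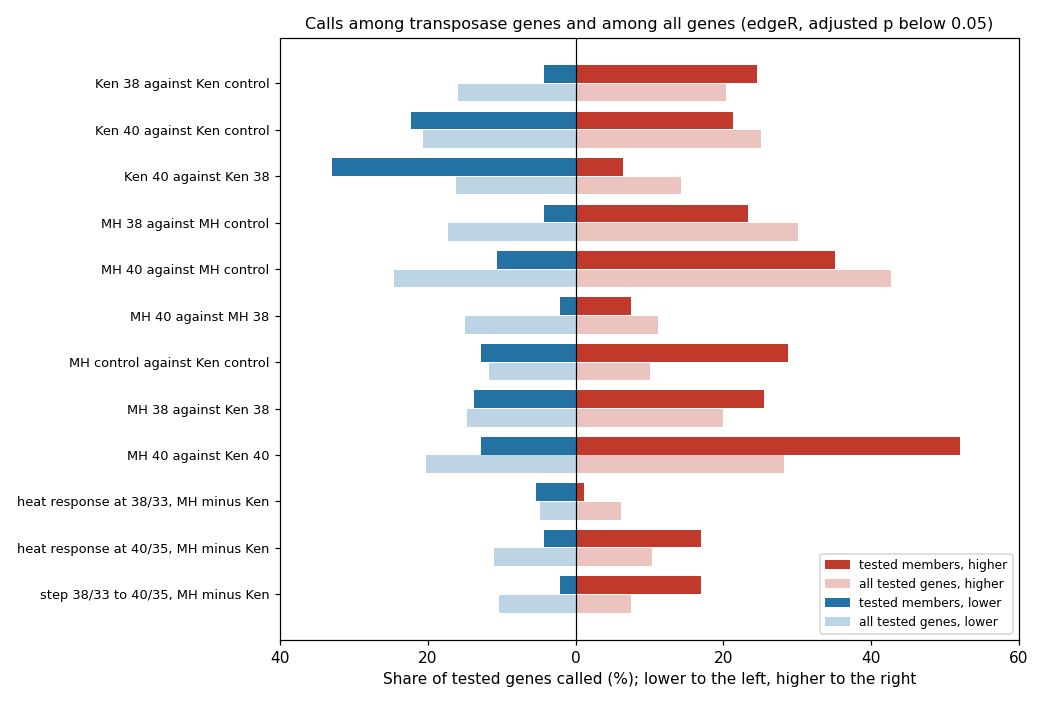
Share of tested genes called higher (right, red) or lower (left, blue) in each of the 12 comparisons; strong bars are the 94 tested members and pale bars all 70022 tested genes, on an x axis in percent. MH 40 against Ken 40 has the longest bar for members, 52.1% higher against 28.2% of all genes, and Ken 40 against Ken 38 the longest to the left, 33% lower against 16.2%.

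The full heat sequence in Ken was addressed by Ken 40 and its control. Here 20 members rose and 21 fell, or 21.3% and 22.3%, where 25.1% of all genes rose and 20.7% fell. Of 23 PIF/Harbinger members 14 rose and 4 fell, with a median log2 change of 1.51, and of 70 hAT members 6 rose and 17 fell, with a median of -0.32. Scaled by library totals alone, 10 hAT members rose and 6 fell, with a median of 0, so the balance of hAT calls turned with the scaling, while PIF/Harbinger gave 16 and 3 with a median of 1.98. Over all members library totals gave 26 rises and 9 falls, and TMM factors of described genes 22 and 15. Library totals moved rises from 48.8% to 74.3% of member calls, and from 54.8% to 68.4% of calls over all genes. The median of all members, -0.11, turned to 0.16 with library totals. Without Ken control replicate 2 the rises numbered 13.

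TRINITY_DN36889_c2_g2 had 47.99, 34.13 and 37.09 TPM in Ken 40, higher than every control library (log2 fold change 2.40 ± 0.25, adjusted p = 6.5e-08). TRINITY_DN55110_c1_g1, described as a myb/SANT Harbinger nuclease protein, stood at 2.23, 1.68 and 3.14 TPM without heat. It had 6.49, 8.07 and 9.77 TPM in Ken 38 and 18.65, 17.87 and 16.64 in Ken 40. Its 3 groups did not overlap (log2 fold change 2.71 ± 0.38, adjusted p = 4.58e-06). HARBI1 gene TRINITY_DN52483_c0_g3 rose to 1.03 ± 0.227 TPM from 0.0367 ± 0.0351 (log2 fold change 4.33 ± 0.66, adjusted p = 1.43e-05), and the RICESLEEPER 2 gene TRINITY_DN58436_c0_g2 to 2.397 ± 0.603 (log2 fold change 4.46 ± 0.57, adjusted p = 1.66e-06). HARBI1 gene TRINITY_DN63758_c1_g3 had 1 count in all Ken controls and 83 in Ken 40, at 3.003 ± 2.38 TPM (adjusted p = 0.00182). Its Ken 40 libraries differed widely. The falls were led by hAT genes. TRINITY_DN42692_c1_g5 was down to 0.7, 0.7 and 0.83 TPM (log2 fold change -3.56 ± 0.36, adjusted p = 9.04e-08), below all Ken 38 libraries too. RICESLEEPER 1 gene TRINITY_DN43343_c0_g6 fell to 0.86 ± 0.318 TPM from 6.56 ± 0.983 (log2 fold change -3.34 ± 0.54, adjusted p = 9.69e-05), and the Activator-type TRINITY_DN62138_c0_g3 from 9.56 ± 4.63 to 0.957 ± 0.2196 (log2 fold change -2.79 ± 0.48, adjusted p = 5.59e-05). The DAYSLEEPER gene TRINITY_DN64076_c2_g2 fell to 1.61 ± 0.536 TPM from 6.99 ± 3.56 (log2 fold change -2.52 ± 0.64, adjusted p = 0.0029).

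Ken 40 was then set against Ken 38, which differ by the final 3 days at the higher regime. Most calls were falls: 31 members fell and 6 rose, or 33% and 6.38%, against 16.2% and 14.3% of all genes. hAT members made up 26 of the falls and 3 of the rises, with a median log2 change of -1.21, and the PIF/Harbinger median was 0. The median of all tested genes was -0.02. By kind, 8 of 13 RICESLEEPER 1, 7 of 16 Activator or Tam3, 4 of 10 DAYSLEEPER and 6 of 25 RICESLEEPER 2 members fell. This direction did not depend on the scaling, since library totals gave 32 falls and 6 rises. Rises were 16.2% of member calls with TMM and 15.8% with library totals, against 46.8% and 41.2% over all genes. Without Ken 38 replicate 3 the member rises numbered 3.

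Among the falls were 11 members that had risen in Ken 38, or 11.7%, against 5.39% of all tested genes. Both calls use the Ken 38 libraries, so they are not independent of each other. TRINITY_DN60779_c0_g1 was back at 5.74, 4.91 and 7.16 TPM in Ken 40 (log2 fold change -2.37 ± 0.36, adjusted p = 3.52e-05), and TRINITY_DN36004_c0_g1 at 3.64, 0.34 and 0 (log2 fold change -4.39 ± 0.69, adjusted p = 7.85e-05). The Activator-type TRINITY_DN61190_c0_g4, 2124 bases long with the dimerization domain, held 8.75, 4.46 and 6.25 TPM without heat, 23.75, 20.17 and 20.05 at the first regime and 10.17, 10.1 and 9.54 at the second, so that the middle group stood above the other two (log2 fold change -1.19 ± 0.26, adjusted p = 0.00152). A short Activator-type piece, TRINITY_DN54260_c1_g2, had 9.43 ± 0.619 TPM in Ken 38 and 0.25 ± 0.433 in Ken 40, where only 2 counts remained (adjusted p = 0.00204). DAYSLEEPER gene TRINITY_DN63539_c1_g2 fell from 1.75 ± 0.781 to 0.343 ± 0.0757 TPM (adjusted p = 0.0425). A second one by description, TRINITY_DN36044_c1_g1, fell from 5.3 ± 1.32 to 0.857 ± 0.298 TPM (adjusted p = 0.0291). Its Pfam assignment is a kinesin motor domain, which goes against that description, and its estimated counts were not whole in 55.56% of libraries. Against this trend the Activator-type piece TRINITY_DN56915_c2_g2 (388 bases) had 0.53, 0.51 and 2.0 TPM in Ken 38 and 17.16, 8.28 and 9.35 in Ken 40, where all libraries were higher (log2 fold change 3.58 ± 0.89, adjusted p = 0.00378). It had 206 counts in Ken 40 and 19 in Ken 38, and passed the filter on low counts through Ken 40. The filter thus set the direction of this call. TRINITY_DN63758_c1_g3 went from 0.783 ± 0.682 to 3.003 ± 2.38 TPM (adjusted p = 0.0163), and this call ended without Ken 38 replicate 2, Ken 38 replicate 3 or Ken 40 replicate 1.

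**Figure D3:**
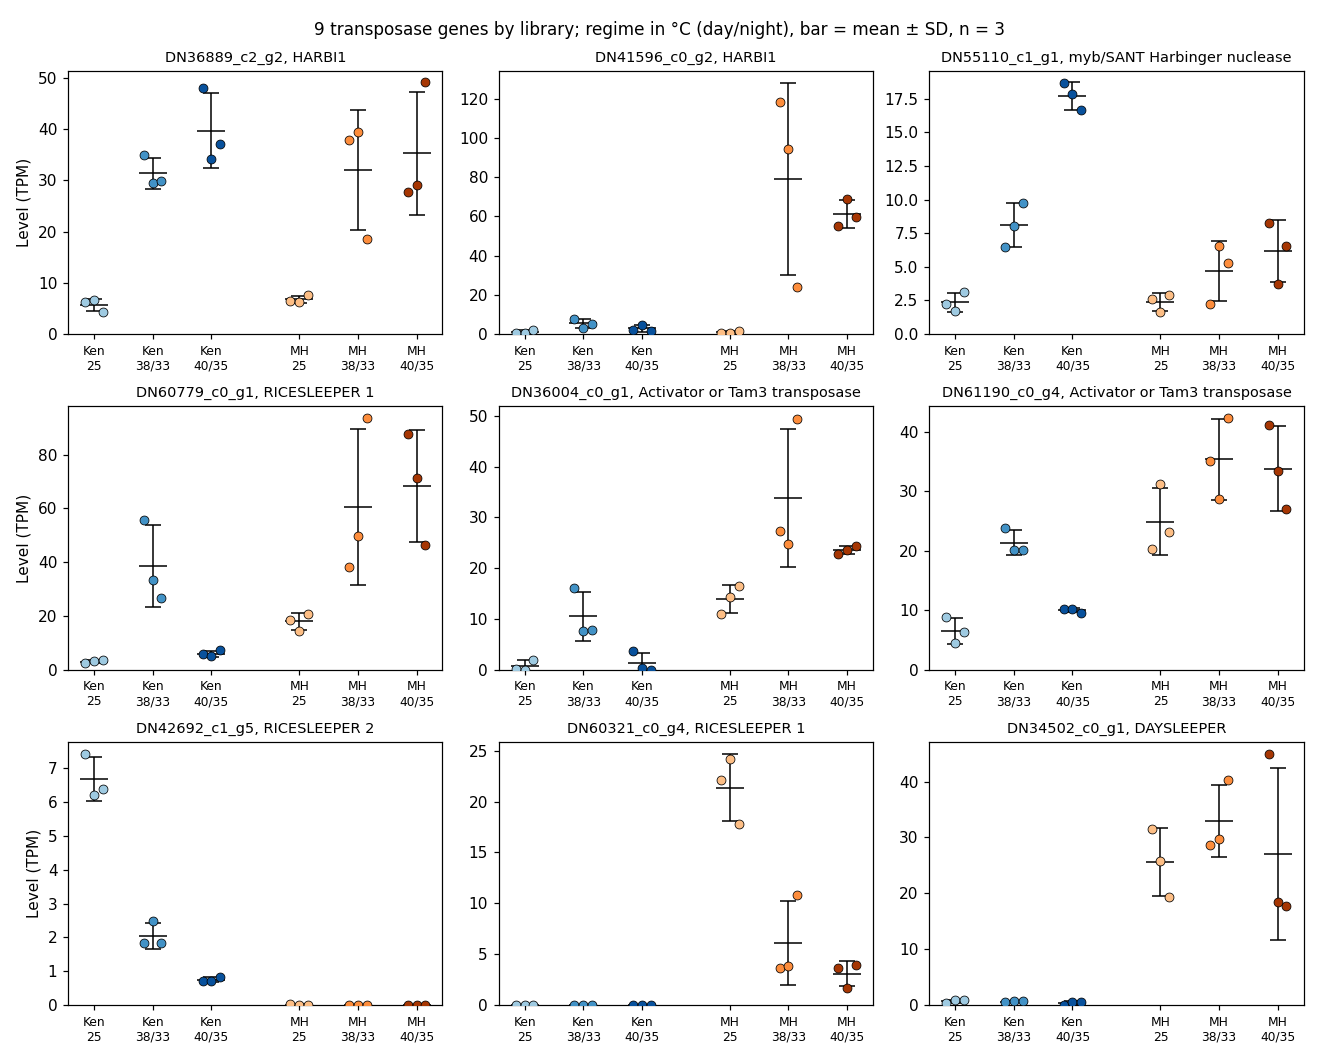
Levels of 9 members in the 18 libraries, in TPM on the y axis, with material and regime on the x axis, points for libraries and bars for mean ± SD with n = 3. The top row holds PIF/Harbinger genes, the middle row 3 hAT genes that were higher in Ken 38 than in Ken 40, and the bottom row 3 hAT genes with levels near 0 in one of the materials; TRINITY_DN41596_c0_g2 reaches 118.2 TPM in MH 38 and stays below 8 TPM in Ken.

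MH 38 against MH control put the question of the first comparison to MH. In MH 22 members rose and 4 fell, or 23.4% and 4.26%, against 30.1% and 17.3% of all genes. The median log2 change was 0.55 for the members, 0.73 for all genes and -0.08 for described genes. PIF/Harbinger members gave 8 rises and no fall, and hAT members 14 and 4. Library totals gave 49 rises and 1 fall. That moved rises from 84.6% to 98% of member calls, and from 63.5% to 85.2% of calls over all genes. Member falls numbered 7 without MH 38 replicate 3 and 2 without MH 38 replicate 2.

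HARBI1 gene TRINITY_DN41596_c0_g2 (448 bases) had 0.36, 0.73 and 1.79 TPM in MH control and 118.2, 94.59 and 24.22 in MH 38. Replicate 3 of MH 38 was lowest of the heated libraries and still above all controls (log2 fold change 5.26 ± 0.63, adjusted p = 1.31e-06). TRINITY_DN36889_c2_g2 had 6.51, 6.27 and 7.63 TPM in MH control and 37.97, 39.55 and 18.63 in MH 38, with the same library lowest (log2 fold change 1.5 ± 0.24, adjusted p = 3.27e-05). HARBI1 gene TRINITY_DN52483_c0_g3 rose to 3.35 ± 1.87 TPM from 0.237 ± 0.1097 (log2 fold change 3.07 ± 0.52, adjusted p = 6.18e-05). RICESLEEPER 3 gene TRINITY_DN64058_c0_g1 had 0.78, 0.81 and 0.15 TPM in MH control and 4.99, 5.68 and 16.95 in MH 38, where replicate 3 was the highest (log2 fold change 3.11 ± 0.65, adjusted p = 0.000571). The falls included TRINITY_DN50081_c0_g1 (RICESLEEPER 1, 3066 bases), from 10.6 ± 1.08 to 6.94 ± 2.32 TPM (log2 fold change -1.26 ± 0.22, adjusted p = 0.0001). RICESLEEPER 1 gene TRINITY_DN60321_c0_g4 had 22.1, 24.23 and 17.81 TPM in the controls and 3.6, 3.88 and 10.81 in MH 38 (log2 fold change -2.31 ± 0.73, adjusted p = 0.0274). That call ended without any of the MH control libraries or without MH 38 replicate 1 or 2, and with library totals (adjusted p = 0.0569). TRINITY_DN61190_c0_g4 was called lower on estimated counts (log2 fold change -1.04 ± 0.26, adjusted p = 0.00232) although its mean level was 24.9 ± 5.65 TPM in MH control and 35.4 ± 6.81 in MH 38. TPM and estimated counts thus moved in opposite directions for this gene. Its counts summed to 1152 in MH control and 842 in MH 38, and scaling by library totals ended the call (log2 change -0.24).

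For the full sequence in MH, MH 40 was set against its control. There were 33 rises and 10 falls, or 35.1% and 10.6% of the members, against 42.7% and 24.6% of all genes and 29.7% and 42.1% of described genes. The median log2 change was 0.52 for members, 1.03 for all genes and -0.29 for described genes. PIF/Harbinger members gave 13 rises and 1 fall with a median of 1.63, and hAT members 20 and 9 with a median of 0.39. Library totals gave 58 rises and 2 falls, RLE size factors 42 and 6, and TMM factors of described genes 50 and 6. Library totals moved rises from 76.7% to 96.7% of member calls, and from 63.4% to 79.3% over all genes. The RICESLEEPER 2 gene TRINITY_DN53125_c1_g1, singled out after its values were seen, was called in opposite directions by the scalings, at -0.46 ± 0.18 with TMM and 0.54 with library totals.

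TRINITY_DN41596_c0_g2 stood at 55.11, 69.09 and 59.48 TPM in MH 40, all far above the controls (log2 fold change 4.95 ± 0.63, adjusted p = 1.04e-06), and TRINITY_DN36889_c2_g2 at 27.67, 29.03 and 49.18 (log2 fold change 1.63 ± 0.24, adjusted p = 5.55e-06). HARBI1 gene TRINITY_DN45781_c1_g6 had no count in MH control and 1.6, 1.46 and 2.33 TPM in MH 40, at least 9.08-fold higher against a floor of 3 counts per library (adjusted p = 4.83e-05). HARBI1 piece TRINITY_DN45356_c0_g4 was likewise at 0 in the controls and at 6.9 ± 1.62 TPM in MH 40, at least 4.401-fold higher (adjusted p = 0.000655). The DAYSLEEPER gene TRINITY_DN34867_c2_g4 had no count in MH control and 0.93, 2.09 and 1.71 TPM in MH 40, at least 7.21-fold higher (adjusted p = 0.000118). These 3 genes had low levels in MH 40 and no count in any MH control library. TRINITY_DN45781_c1_g6 had 134 counts in MH 40, 12 in MH 38 and 24 in Ken 40, and TRINITY_DN45356_c0_g4 had 66, 6 and 9. Both passed the filter on low counts through MH 40, which set the direction of their calls. TRINITY_DN34867_c2_g4, with 104 counts in MH 40 and 41 in MH 38, passed it through heated MH libraries. TRINITY_DN60321_c0_g4 fell further, to 3.64, 1.67 and 3.98 TPM (log2 fold change -4.03 ± 0.79, adjusted p = 0.00154). The longest member, TRINITY_DN59315_c0_g3 (RICESLEEPER 2, 4126 bases), fell to 1.66 ± 0.811 TPM from 6.94 ± 1.498 (log2 fold change -2.40 ± 0.25, adjusted p = 3.8e-08). HARBI1 gene TRINITY_DN45356_c0_g5 fell from 2.99 ± 1.57 to 0.45 ± 0.471 TPM (adjusted p = 0.0116), a call that was lost with library totals and with DESeq2.

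Few members moved in MH between 38/33 and 40/35 °C. There were 7 rises and 2 falls, or 7.45% and 2.13%, against 11.2% and 15% of all genes. PIF/Harbinger members gave 5 of the rises and no fall, with a median log2 change of 0.61, and the hAT median was -0.08, turning to 0.07 with library totals. Library totals gave 11 rises and 1 fall, and RLE size factors 13 and 1. Rises went from 77.8% of member calls to 91.7% and 92.9%, and over all genes from 42.7% to 53% and 56.8%. The counts moved with single libraries: the rises numbered 3 without MH 38 replicate 1, 2 without MH 40 replicate 2, and 4 without MH 40 replicate 1 or MH 40 replicate 3. The falls numbered 5 without MH 38 replicate 1 and 1 without MH 40 replicate 2 or MH 40 replicate 3. TRINITY_DN45781_c1_g6 rose from 0.17, 0.24 and 0.08 to 1.6, 1.46 and 2.33 TPM without overlap (log2 fold change 3.38 ± 0.82, adjusted p = 0.00517). TRINITY_DN45356_c0_g4 had 0.673 ± 0.335 TPM in MH 38 and 6.9 ± 1.62 in MH 40 (adjusted p = 0.0206), and this call ended when any of the 6 libraries was left out. Both genes passed the filter on low counts through MH 40, which set the direction of these calls. TRINITY_DN59315_c0_g3 fell from 5.79, 5.14 and 6.24 to 2.56, 0.99 and 1.42 TPM (log2 fold change -1.60 ± 0.24, adjusted p = 4.94e-05). The Activator-type TRINITY_DN44424_c0_g1 went from 11.6 ± 2.93 to 8.33 ± 1.501 TPM (adjusted p = 0.0291), a call lost with DESeq2, with each other scaling and without MH 38 replicate 3, MH 40 replicate 2 or MH 40 replicate 3.

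Some genes moved alike in both materials. In all 4 heated groups 8 members (8.51%) were higher than in their controls and none was lower. Of all tested genes 7.86% were higher and 8.28% lower in all 4, so the share of members that were higher was near the background. Of these 8, 5 were HARBI1 genes (TRINITY_DN36889_c2_g2, TRINITY_DN52483_c0_g3, TRINITY_DN50060_c1_g4, TRINITY_DN63248_c1_g4 and TRINITY_DN42492_c1_g2), and the others were TRINITY_DN58436_c0_g2, TRINITY_DN51250_c0_g4 and TRINITY_DN64058_c0_g1. TRINITY_DN50060_c1_g4 (HARBI1, 1402 bases) went from 0.0667 ± 0.0702 to 1.42 ± 0.585 and 1.09 ± 0.133 TPM in Ken and from 0.387 ± 0.194 to 5.003 ± 2.43 and 7.65 ± 1.64 in MH. TRINITY_DN63248_c1_g4 (HARBI1, 817 bases) went from 1.32 ± 0.712 to 5.58 ± 1.35 and 4.93 ± 0.374 TPM in Ken and from 2.98 ± 1.68 to 9.76 ± 2.48 and 17 ± 1.94 in MH. These 2 genes, with TRINITY_DN51250_c0_g4 and TRINITY_DN42492_c1_g2, are named for this pattern, after their values were seen. The longest DAYSLEEPER gene, TRINITY_DN43658_c0_g1 (2825 bases, with the BED zinc finger), was called in no comparison and lay between 3.73 ± 0.642 TPM in Ken control and 7.79 ± 2.61 in MH 40. It was 1 of 11 tested members without any call.

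The unheated materials were compared first. Of the members 27 were higher in MH and 12 lower, or 28.7% and 12.8%, against 10.1% and 11.7% of all genes and 11.1% and 16.2% of described genes. The median log2 difference was 0.49 for members and 0 for all genes. In PIF/Harbinger 9 members were higher and 1 was lower, with a median of 1.35, and in hAT 18 were higher and 11 lower, with a median of 0.16. Library totals gave 27 and 12 as well, against 10.7% and 10.7% of all genes. The Activator-type TRINITY_DN53581_c1_g3 (790 bases) had 1 count in all 3 Ken controls and 449 in the MH controls, which held 9.76, 11.14 and 11.1 TPM (adjusted p = 5.29e-10). TRINITY_DN60321_c0_g4 had no count in Ken control and 22.1, 24.23 and 17.81 TPM in MH control, at least 279.4-fold higher (adjusted p = 0.000289). DAYSLEEPER gene TRINITY_DN34502_c0_g1 had 0.35, 0.83 and 0.82 TPM in Ken control and 31.54, 25.78 and 19.36 in MH control (log2 difference 4.60 ± 0.55, adjusted p = 2.45e-06). Every MH library stood far above every Ken library. TRINITY_DN36004_c0_g1, at no more than 1.97 TPM in Ken control, had 10.86, 14.34 and 16.45 TPM in MH control (log2 difference 5.42 ± 0.81, adjusted p = 5.71e-05), and TRINITY_DN61190_c0_g4 had 20.32, 31.19 and 23.1 (log2 difference 2.44 ± 0.27, adjusted p = 8.75e-07). In the other direction TRINITY_DN42692_c1_g5, at 6.67 ± 0.647 TPM in Ken control, had 2 counts in all MH controls (adjusted p = 3.04e-10). TRINITY_DN43343_c0_g6 was at 6.56 ± 0.983 TPM in Ken control and had no count in MH control, at least 26.2-fold lower (adjusted p = 2.23e-06). DAYSLEEPER gene TRINITY_DN64076_c2_g2 was lower in MH, with 0, 0 and 5.11 TPM against 10.85, 3.84 and 6.27 in Ken (log2 difference -4.49 ± 0.77, adjusted p = 0.000161). Its MH level rested on 8 counts, and 2 of the 3 MH libraries were at 0 TPM.

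MH 38 against Ken 38 compared the materials at 38/33 °C. Higher in MH were 24 members and lower 13, or 25.5% and 13.8%, against 19.9% and 14.7% of all genes. The median log2 difference was 0.29 for members and 0.24 for all genes. Library totals gave 27 members higher and 10 lower, against 26.8% and 10.6% of all genes. Without MH 38 replicate 3 there were 23 higher and 25 lower, so the balance in this comparison rests on that library. TRINITY_DN53581_c1_g3 had 34.16, 31.77 and 25.23 TPM in MH 38 and 3 counts in all Ken 38 libraries (adjusted p = 5.53e-11). TRINITY_DN41596_c0_g2, at 7.89, 3.25 and 5.17 TPM in Ken 38, was higher in every MH 38 library (log2 difference 3.05 ± 0.53, adjusted p = 0.000183). TRINITY_DN34502_c0_g1 stayed apart by material, with 0.63 ± 0.161 TPM in Ken 38 and 32.9 ± 6.42 in MH 38 (log2 difference 4.66 ± 0.55, adjusted p = 1.56e-06). TRINITY_DN60321_c0_g4 had 1 count in Ken 38 and 769 in MH 38 (adjusted p = 0.000764). RICESLEEPER 2 piece TRINITY_DN60286_c0_g5 (354 bases) had 7.28, 7.96 and 6.98 TPM in Ken 38 and no count in MH 38, at least 14.1-fold lower (adjusted p = 8.29e-05). TRINITY_DN43343_c0_g6 was at least 18.9-fold lower in MH 38 (adjusted p = 3.32e-06).

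MH 40 against Ken 40 compared them at 40/35 °C, where the members differed most often of the 12 comparisons. Higher in MH were 49 members and lower 12, or 52.1% and 12.8%, against 28.2% and 20.3% of all genes and 19.8% and 35.3% of described genes. The median log2 difference was 1.43 for members, 0.47 for all genes and -0.29 for described genes. Library totals gave 58 members higher and 9 lower, against 40.2% and 12.8% of all genes. PIF/Harbinger gave 16 higher and 1 lower of 23, with a median of 1.75, and hAT 32 higher and 11 lower of 70, with a median of 1.08. By kind, 16 of 22 HARBI1 genes, 9 of 16 Activator or Tam3 genes, 8 of 13 RICESLEEPER 1 genes and 4 of 10 DAYSLEEPER genes were higher in MH. RICESLEEPER 2 was even, with 8 higher and 8 lower of 25. TRINITY_DN60779_c0_g1 had 87.5, 71.19 and 46.35 TPM in MH 40, where every library exceeded the Ken 40 libraries (log2 difference 3.12 ± 0.36, adjusted p = 5.27e-07). TRINITY_DN53581_c1_g3 had 22.3 ± 0.764 TPM in MH 40 and 1 count in Ken 40 (adjusted p = 5.75e-11). The partial transposase TRINITY_DN61952_c1_g7, of no stated family, had no count in any Ken library and 4.79, 4.87 and 2.97 TPM in MH 40, at least 3.38-fold higher (adjusted p = 0.00488). With 41 counts in MH 40 and 6 in MH 38, it passed the filter on low counts through MH 40. The filter thus set the direction of this call, and no conclusion is drawn from it. TRINITY_DN55110_c1_g1 went the other way, with 6.197 ± 2.299 TPM in MH 40 against 17.7 ± 1.01 in Ken 40 (log2 difference -2.85 ± 0.38, adjusted p = 2.46e-06). TRINITY_DN56915_c2_g2 had 0.547 ± 0.477 TPM in MH 40 and 11.6 ± 4.85 in Ken 40 (log2 difference -4.68 ± 0.95, adjusted p = 0.000383). It had 10 counts in MH 40 and 206 in Ken 40. Its passage of the filter through Ken 40 set the direction of this call. Short RICESLEEPER 2 pieces TRINITY_DN60286_c0_g5 and TRINITY_DN64026_c1_g3 had no count in MH 40 and were at least 4.52-fold and 2.26-fold lower, the second without a call when Ken 40 replicate 2 was left out.

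Across all 3 regimes 19 members were higher in MH and 4 lower, or 20.2% and 4.26%, against 3.69% and 3.52% of all tested genes and 2.99% and 4.78% of described genes. The 19 held 5 HARBI1, 4 RICESLEEPER 1, 3 RICESLEEPER 2, 3 Activator or Tam3, 2 DAYSLEEPER and 2 RICESLEEPER 3 genes, and the 4 were the RICESLEEPER genes TRINITY_DN42692_c1_g5, TRINITY_DN43343_c0_g6, TRINITY_DN60286_c0_g5 and TRINITY_DN64026_c1_g1. Of all 141 members, 13 (9.22%) had no count in any Ken library and at least 10 in MH, against 6.72% of all genes with counts and 3.18% of described genes. No count in any MH library and at least 10 in Ken was seen in 5 members (3.55%), against 2.13% and 1.53%. The 13 and the 5 were mostly short pieces with few counts: the highest of the 13, TRINITY_DN57992_c0_g2 (RICESLEEPER 2, 515 bases), had 227 counts in MH, and the highest of the 5, TRINITY_DN43343_c0_g6, had 411 in Ken. In the cluster TRINITY_DN64026, which holds 5 members, some were higher and others lower in MH at each of the 3 regimes. One of them, TRINITY_DN64026_c1_g1 (RICESLEEPER 2, 1714 bases), had 9.897 ± 1.81 TPM in Ken control and 0.18 ± 0.102 in MH control (log2 difference -6.24 ± 0.54, adjusted p = 2.67e-08). TRINITY_DN57992_c0_g2 and TRINITY_DN64026_c1_g1 lie outside the naming rule and were picked after their values were seen.

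Whether the first heat step acted differently on the materials was addressed by subtracting the Ken response from the MH response. This difference was called for 6 members, 1 higher and 5 lower in MH, or 1.06% and 5.32%, against 6.07% and 4.78% of all genes. Library totals gave 2 and 4. The share of higher calls moved from 16.7% to 33.3% for members and from 55.9% to 70.8% for all genes. Without MH 38 replicate 3 there were 4 and 10. The single higher call fell away without each of 8 libraries: MH control replicate 1 or 2, MH 38 replicate 1 or 2, Ken control replicate 1 or 3, and Ken 38 replicate 2 or 3. It belonged to TRINITY_DN41596_c0_g2, with a difference of 2.98 ± 0.90 (adjusted p = 0.036). The difference for TRINITY_DN61190_c0_g4 was -2.43 ± 0.37 (adjusted p = 0.000171), where the gene rose in Ken 38 and was called lower in MH 38. For TRINITY_DN36004_c0_g1 it was -4.87 ± 0.99 (adjusted p = 0.00321): the gene went from 13.9 ± 2.82 to 33.8 ± 13.5 TPM in MH, where its change was not called, and rose in Ken from at most 1.97 TPM. The other 3 lower calls were TRINITY_DN46697_c1_g2 and TRINITY_DN41764_c0_g2, both HARBI1, and TRINITY_DN60779_c0_g1, with differences of -1.74 ± 0.35, -2.06 ± 0.47 and -1.52 ± 0.48. They are listed to complete the 6 calls.

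At 40/35 °C the same difference was called for 20 members, 16 higher and 4 lower in MH, or 17% and 4.26%, against 10.3% and 11.1% of all genes and 10.2% and 21.1% of described genes. In hAT 13 were higher and 3 lower, and in PIF/Harbinger 3 and 1. Library totals gave 24 and 2, moving higher calls from 80% to 92.3% of member calls and from 48.2% to 70.8% over all genes. Higher calls of members numbered 10 without Ken control replicate 2 or without MH 40 replicate 1. DAYSLEEPER gene TRINITY_DN61203_c0_g1 had 0, 0 and 0.07 TPM in Ken 40 and 2.64, 0.77 and 1.45 in MH 40, from at most 0.30 TPM in any control library (difference 6.16 ± 1.75, adjusted p = 0.014). This call ended without Ken control replicate 2. TRINITY_DN61203_c0_g1 had 90 counts in MH 40, 14 in MH 38, 10 in Ken 38 and 1 in Ken 40. It passed the filter on low counts through MH 40, which set the direction of this call. No conclusion is drawn from it. TRINITY_DN34867_c2_g4, the DAYSLEEPER gene at 0 in MH control, had 2 counts in each Ken group, and its fitted difference of 8.12 ± 2.44 depends on the prior count and gives no bound (adjusted p = 0.021, not called without Ken control replicate 1 or 3). The Harbinger gene TRINITY_DN55110_c1_g1 had a difference of -2.16 ± 0.52 (adjusted p = 0.00465) and the Activator-type piece TRINITY_DN56915_c2_g2 of -4.34 ± 1.37 (adjusted p = 0.0262). The call for the latter ended with library totals and without Ken 40 replicate 1, Ken control replicate 1, MH 40 replicate 2 or MH control replicate 2. That piece passed the filter on low counts through Ken 40, which set the direction of its call.

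Calls in opposite directions at 40/35 °C were made for 4 members, all lower in Ken 40 and higher in MH 40, each against its control, or 4.26% against 1.06% of all tested genes. They are named here for that pattern, after their values were seen. RICESLEEPER 2 gene TRINITY_DN48792_c1_g1 went from 10.3 ± 0.414 to 6.73 ± 1.11 TPM in Ken and from 1.24 ± 0.619 to 6.0 ± 1.92 in MH (difference 2.60 ± 0.58). HARBI1 gene TRINITY_DN60366_c0_g1 (2852 bases) went from 0.803 ± 0.145 to 0.547 ± 0.117 TPM in Ken and from 0.387 ± 0.1002 to 2.303 ± 0.619 in MH (difference 2.90 ± 0.52). HARBI1 gene TRINITY_DN61138_c1_g4 (3497 bases) had 0.15, 0.19 and 0.22 TPM in Ken 40 and 1.38, 3.65 and 5.91 in MH 40, and its MH 40 libraries differed widely (difference 2.98 ± 0.60). The 4th was TRINITY_DN64026_c1_g1, with a difference of 3.65 ± 0.69. With library totals, the fall in Ken 40 was called for TRINITY_DN61138_c1_g4 and for none of the other 3.

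The step from 38/33 to 40/35 °C also differed between the materials, a comparison added after the data had been seen. Here 16 members were higher and 2 lower in MH minus Ken, or 17% and 2.13%, against 7.54% and 10.4% of all genes and 7.75% and 20.3% of described genes. The median difference was 0.88 for members, 0.17 for all genes and -0.26 for described genes. Library totals gave 22 and 1, against 10.1% and 7.75% of all genes. The higher calls numbered 10 without MH 38 replicate 1 or MH 40 replicate 3, and 24 without MH 38 replicate 3. TRINITY_DN36004_c0_g1 had a difference of 3.94 ± 0.86 (adjusted p = 0.00286), with 22.79, 23.6 and 24.3 TPM still present in MH 40. For TRINITY_DN60779_c0_g1 it was 1.96 ± 0.48 (adjusted p = 0.00554). The lower calls were the RICESLEEPER 2 genes TRINITY_DN59315_c0_g3, at -1.38 ± 0.33, and TRINITY_DN53125_c1_g1, at -0.93 ± 0.26.

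**Figure D4:**
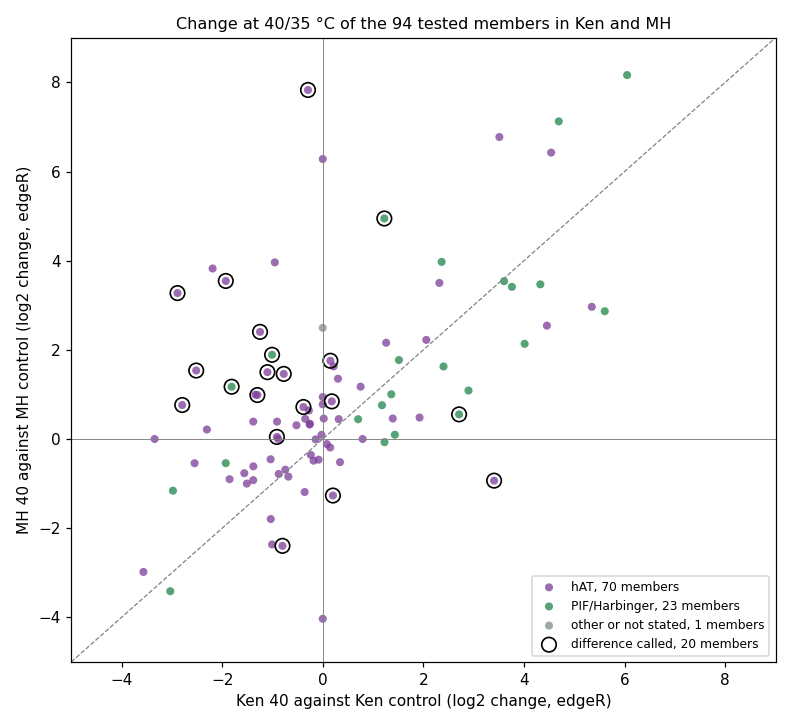
Log2 change at 40/35 °C against control in Ken (x axis) and in MH (y axis) for the 94 tested members, coloured by family; rings mark the 20 members whose difference was called, and the dashed line marks equal change. Of the ringed members 16 lie above the line and 4 below, and genes with no count in a group have a fitted change that depends on the prior count.

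Gene lists related to transposons gave the setting. Of all tested genes, 20.3% rose and 15.9% fell in Ken 38, 25.1% and 20.7% in Ken 40, 30.1% and 17.3% in MH 38, and 42.7% and 24.6% in MH 40. For described genes these shares were 18.8% and 29.2%, 23.4% and 32.5%, 23.2% and 30.6%, and 29.7% and 42.1%. FAR1 and FHY3 genes, derived from Mutator-like transposases and active in light signalling of Arabidopsis thaliana, had 51 tested of 55. In Ken 38 9 rose and 7 fell, in Ken 40 7 and 13, in MH 38 18 and 8, and in MH 40 15 and 19. With library totals these became 21 and 6, 11 and 7, 27 and 2, and 26 and 10, so that the balance at 40/35 °C turned in both materials. ALP1 genes, named after a Harbinger-derived protein that counters Polycomb silencing in Arabidopsis thaliana, had 10 tested of 12, and between 1 and 4 rose in each of these comparisons. Retrotransposon proteins, which move by way of RNA, had 1301 tested of 2534. Their rises and falls were 305 and 56 in Ken 38, 344 and 124 in Ken 40, 509 and 70 in MH 38, and 780 and 90 in MH 40, with median log2 changes of 1.18, 0.80, 1.63 and 2.39. In Ken 40 against Ken 38 117 of them rose and 212 fell, and in MH 40 against MH 38 205 and 52. Of all tested genes 14.3% rose and 16.2% fell in the Ken step, and 11.2% and 15% in the MH step. For retrotransposon proteins library totals left the larger number on the same side in each of these 6 comparisons. The counts were 496 and 34, 439 and 93, 796 and 40, 981 and 56, 98 and 228, and 233 and 39. The medians of members in these 6 comparisons, in the same order, were 0.40, -0.11, 0.55, 0.52, -0.81 and 0.09. Those of all tested genes were 0.42, 0.30, 0.73, 1.03, -0.02 and 0.15. Silencing genes were those described as DNA methyltransferases, DDM1, argonaute 4, Dicer-like 3, SUVH4, RNA polymerase IV or V, or any RNA-dependent RNA polymerase. They had 34 tested of 48. In Ken 38 3 rose and 13 fell, and in Ken 40 2 and 18. In MH 38 the numbers were 5 and 12, and in MH 40 6 and 18. With library totals the silencing counts were 7 and 5, 5 and 12, 12 and 7, and 12 and 13, so the balance turned with the scaling at 38/33 °C in both materials, while falls outnumbered rises at 40/35 °C under both scalings, narrowly so in MH with library totals. Described genes likewise had more falls than rises in all of these comparisons with TMM. With library totals they had more rises than falls. These lists were described and not tested as sets.

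**Figure D5:**
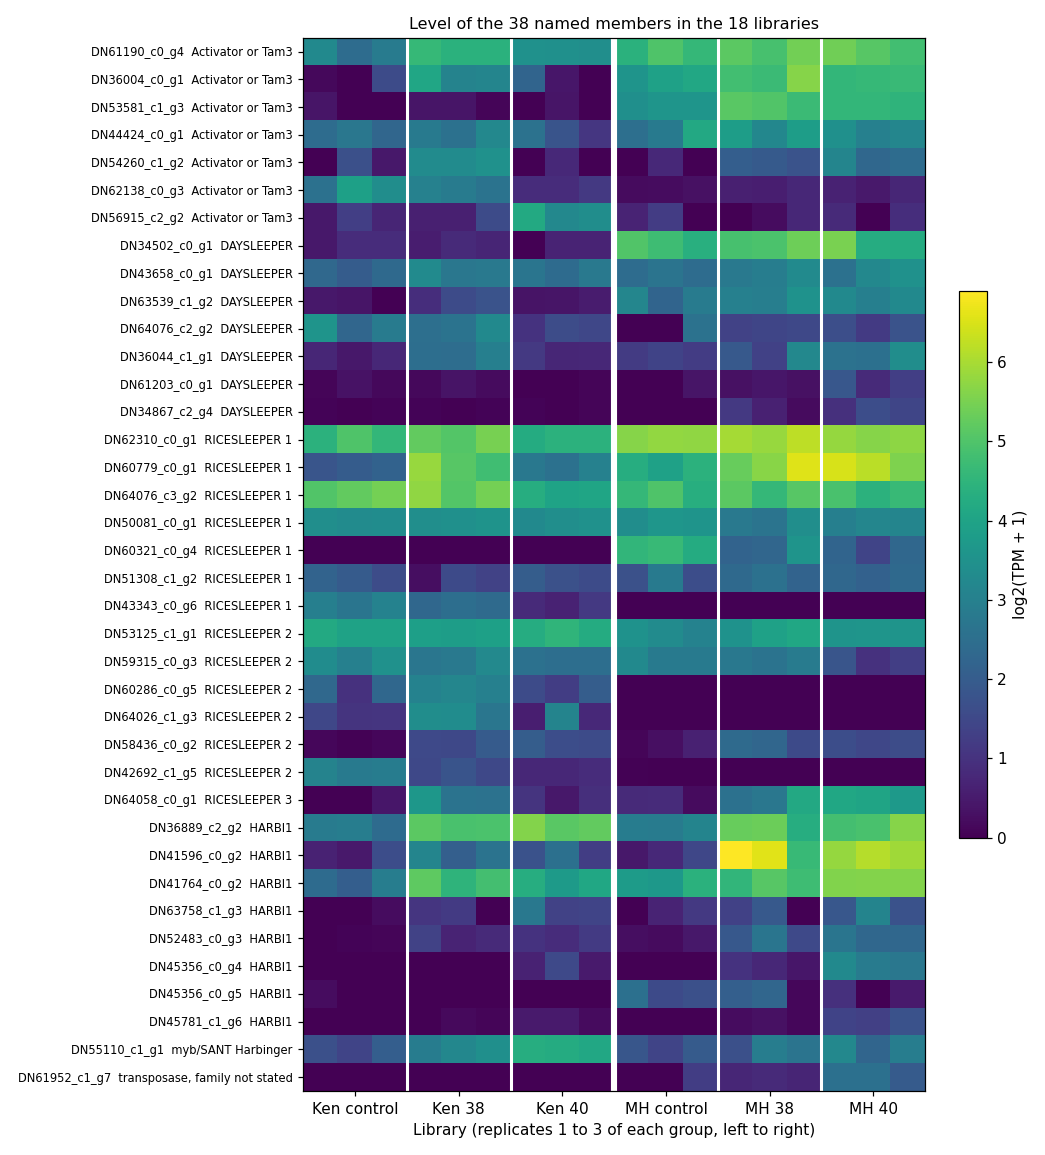
Level of the 38 named members in the 18 libraries as log2(TPM + 1), with members in rows by family and kind and libraries in columns by group. Rows such as TRINITY_DN53581_c1_g3 and TRINITY_DN34502_c0_g1 are bright only in MH columns, TRINITY_DN42692_c1_g5 and TRINITY_DN43343_c0_g6 only in Ken columns, and TRINITY_DN36889_c2_g2 is brighter in every heated group than in its control.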

How the data were processed

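Leaf RNA from 18 libraries, 3 in each of 6 groups, was sequenced. For each gene of one assembled transcript set the authors deposited an estimated count and a TPM value per library, with Swiss-Prot, nr and Pfam descriptions. Cutadapt 1.9 is named in the submitters' processing notes. Assembler version, quantifier and settings: not given in the sources used here. No genome or sequence was used here, so no sequences or coordinates are printed.

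Estimated counts, rounded to whole numbers, were tested with edgeR 4.0.16 in R 4.3.3: TMM scaling, filterByExpr with a minimum of 10 counts per library and 15 in total, a quasi-likelihood fit of 6 group means with robust dispersion (12 residual degrees of freedom), and Benjamini-Hochberg adjustment over 70022 genes. A call is an adjusted p below 0.05. Genes with few counts can pass the filter through a single group or material. The filter then sets the direction of their calls there. The standard error is the log2 change divided by the square root of F. Interaction contrasts tested differences of responses. Levels are deposited TPM. A group without counts was set against a floor of 3 counts per library to give a bound. Totals per library ran from 15845118 to 22867236 counts, so genes with few counts are imprecise; intervals cover the spread between these libraries only.

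Members and lists were chosen with earlier results of these data known. The name "AC transposase" was counted under hAT after reading the descriptions, and 1 gypsy-type transposase was left out by the rule. Genes were named by rule: the 6 members with the highest mean TPM, the highest of each family, up to 5 DAYSLEEPER genes by mean TPM, and in each comparison the called members with the largest changes among those with at least 1 TPM in the higher group and, except for differences of responses, no overlap between groups (3 in each direction for heat against control, 2 for the others). This gave 38 members, and genes outside it are said to have been chosen after their values were seen or to complete a list of calls. Scripts were tested on simulated data. Alternatives were DESeq2 1.42.0, RLE size factors, TMM factors of described genes, library totals, other filters, only the groups compared, a replicate block, members of at least 500 bases, and each library left out in turn.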

Additional observations from a re-analysis of the deposited data

Results flagged for a closer look

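Members whose heat responses differed between the 2 materials by an interaction test are listed here. At 38/33 °C the difference (MH minus Ken) was called higher for 1 member and lower for 5, or 1.06% and 5.32% against 6.07% and 4.78% of all genes. TRINITY_DN41596_c0_g2 had a log2 difference of 2.98, TRINITY_DN36004_c0_g1 of -4.87 and TRINITY_DN61190_c0_g4 of -2.43. The call for TRINITY_DN41596_c0_g2 was lost in 10 of 20 alternatives, those for the others in 0 of 20. At 40/35 °C the difference was called higher for 16 members and lower for 4, or 17% and 4.26% against 10.3% and 11.1%. The fitted value of 8.12 for TRINITY_DN34867_c2_g4, which had no count in MH control, depends on the prior count and gives no bound, and its call was lost without Ken control replicate 1 or 3. The other named genes had 6.16 for TRINITY_DN61203_c0_g1, -4.34 for TRINITY_DN56915_c2_g2 and -2.16 for TRINITY_DN55110_c1_g1. Their calls were lost in 1 of 19, 5 of 19 and 0 of 20 alternatives, in that order. TRINITY_DN61203_c0_g1 had 1 count in Ken 40 and passed the filter on low counts through MH 40, with 90 counts. TRINITY_DN56915_c2_g2 passed it through Ken 40, with 206 counts. The filter thus set the direction of both calls, and no conclusion is drawn from them. For the step from 38/33 to 40/35 °C the difference was called higher for 16 members and lower for 2, or 17% and 2.13% against 7.54% and 10.4%. Regime, hour and plant age cannot be told apart in either material.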

How the results depend on the processing

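For the 51 pairs of a named gene and a comparison, 737 alternative values gave the same call in 684 cases and lost it in 53, and none turned its direction. The naming rule chose these pairs as called members with the largest changes, so this tally does not measure how stable other calls are. Outside these pairs, scaling by library totals turned TRINITY_DN53125_c1_g1 in MH 40 from -0.46 to 0.54, and the member medians of Ken 40 and of the difference at 38/33 °C from -0.11 to 0.16 and from -0.19 to 0.08. Library totals gave 39 higher and 1 lower in Ken 38, 9 lower in Ken 40, 49 and 1 in MH 38, 58 and 2 in MH 40, 11 and 1 in the MH step, 2 higher for the difference at 38/33 °C, 2 lower for that at 40/35 °C and 1 lower for the step difference. TMM factors of described genes gave 2 lower in Ken 38, 50 and 6 in MH 40, 13 and 1 in the MH step and 1 lower for the step difference. RLE gave 6 lower in MH 40 and 13 and 1 in the MH step. DESeq2 gave 5 lower in MH 40, 13 and 1 in the MH step and 5 higher for the difference at 38/33 °C. A minimum of 50 counts gave 13 higher in Ken 40, 5 lower in MH 40, 1 lower in the MH step, 7 lower in MH 40 against Ken 40 and 2 higher for the difference at 38/33 °C, where no filter also gave 2. Fitting only the groups compared gave 8 lower in Ken 38 and 0 higher for the difference at 38/33 °C. The calls of all genes shifted with library totals too. Their share of higher calls went from 56.1% to 76.6% in Ken 38 and from 54.8% to 68.4% in Ken 40. In MH 38 it went from 63.5% to 85.2% and in MH 40 from 63.4% to 79.3%.

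Replicate numbers of the titles did not pair the libraries: 0 of 45 same-numbered pairs correlated above 0.1 (range -0.107 to 0.0786). In MH 38 and MH control the library names carry other numbers than the titles, and a pairing by those was not tested. A block for the title replicate number gave 4 higher in the MH step and 0 higher for the difference at 38/33 °C. Members of at least 500 bases gave 15 higher in MH 38 against Ken 38, 0 higher for the difference at 38/33 °C, and sums of 290.9, 520.5, 315.9, 402.9, 699.6 and 701.8 TPM. Without the highest member, the sums of Ken control, MH control and MH 38 were 304.7, 476.6 and 912.9 TPM. As TMM-scaled CPM the sums were 519.3, 529.3, 588.2, 622.8 and 635.2 in Ken control, Ken 40, MH control, MH 38 and MH 40.

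With 1 library left out, higher and lower counts ranged from 17 to 20 and 2 to 3 in Ken 38, 13 to 17 and 14 to 17 in Ken 40, 3 to 6 and 23 to 27 in the Ken step, 16 to 20 and 2 to 7 in MH 38, 30 to 34 and 8 to 11 in MH 40, and 2 to 7 and 1 to 5 in the MH step. Between materials they ranged from 21 to 25 and 10 to 11 in controls, 19 to 23 and 10 to 25 at 38/33 °C, and 41 to 45 and 11 to 13 at 40/35 °C. The differences ranged from 0 to 4 and 4 to 10, 10 to 13 and 3 to 5, and 10 to 24 and 2 to 3. The 47 members that the filter on low counts left out were not tested.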
